A study of Homo sapiens with 6 samples.

Results

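Of 60664 genes in a deposited RNA-sequencing table, the values described here are those of 10, chosen by name: the inhibitor of apoptosis (IAP) genes BIRC2, BIRC3 and XIAP, the TNF receptor-associated factor genes TRAF1 to TRAF6, and RIPK1. They were chosen with earlier results of these data known. All 10 are in the table under their symbols, and all 10 were among the 14421 genes tested. The cells were SW480, an established human colorectal adenocarcinoma line labelled wild type. The labels assign 3 libraries to Amuc_0904 treatment and 3 to buffer, and name no other agent or allele in either group. The name Amuc_0904 is written like the gene identifiers of Akkermansia muciniphila, a bacterium of the intestinal mucus. Dose, duration and the form of the preparation are not in the labels, which also do not say whether replicates were separate cultures, so p-values measure only the spread between these libraries, which may be technical. The comparison asks which genes differ in level between cells given Amuc_0904 and cells given buffer.

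When TNF binds its receptor, the adaptor TRADD and the kinase RIPK1 gather at the receptor tail, and TRAF2 brings in cIAP1 and cIAP2, the ubiquitin ligases encoded by BIRC2 and BIRC3. The ubiquitin chains that these ligases build on RIPK1 and on themselves are docking sites for the TAK1 and IKK kinases, which switch on the transcription factor NF-kB. Without this ubiquitin, RIPK1 can instead join FADD and caspase-8 in a complex that kills the cell. In resting cells TRAF2, TRAF3 and the cIAPs also keep the kinase NIK (MAP3K14) scarce and so hold back the alternative NF-kB route. XIAP blocks caspases directly.

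The deposited values are in TPM, the transcript share of each library corrected for transcript length, with library sums of 996107 to 997036. Read numbers cannot be had from TPM, so depth is unknown and no counting interval is given. The colorectal epithelial markers EPCAM, KRT8, KRT18, KRT19, KRT20, CDX2, VIL1 and CDH1 together held 7092 to 7380 TPM in Amuc_0904 libraries and 7907 to 8148 TPM in buffer libraries, with KRT20 and VIL1 under 1 TPM on average. Of the 6 that were tested, 1 fell (CDH1, to 3.80 ± 0.246 TPM in Amuc_0904 libraries, against 7.01 ± 1.199 TPM in buffer libraries; limma adjusted p = 0.044). The call of CDH1 was lost when single libraries were left out (adjusted p from 0.061 to 0.14), after median centring (0.062), after quantile normalization (0.057) and after removal of the dependence on transcript GC content (0.053). In 5 of the 6 every Amuc_0904 library lay below every buffer library, as in 20.1% of all tested genes. After GC removal the log2 fold changes among them were -0.071 for KRT8 and 0.059 for KRT19. They stayed lower for EPCAM (-0.16), CDX2 (-0.41) and CDH1 (-0.68), with limma adjusted p of 0.27, 0.16 and 0.053. The 10 immune markers summed to 2.01 to 3.45 TPM in Amuc_0904 libraries and 2.60 to 3.04 TPM in buffer libraries, with PTPRC, CD2 and MS4A1 listed at 0 throughout. The 6 fibroblast markers summed to 1.71 to 2.22 TPM in Amuc_0904 libraries and 2.32 to 3.76 TPM in buffer libraries, with DCN listed at 0. The 5 endothelial markers summed to 0.16 to 0.54 TPM in Amuc_0904 libraries and 0.25 to 0.80 TPM in buffer libraries, with KDR and TEK listed at 0. The part of these marker levels in the results below was not tested.

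Of the 10 members, 1 rose, 0 fell and 9 did not pass by limma (Benjamini-Hochberg adjusted p under 0.05), while at an unadjusted p under 0.05 there were 3 higher (BIRC3, BIRC2 and TRAF1; 4.49% of all tested genes) and 1 lower (TRAF4; 16.3% of all tested genes). Over all 14421 tested genes 197 passed (1.37%), with 53 higher (0.368%) and 144 lower (0.999%). That split depended on scaling: it was 43 higher and 42 lower after median centring, 46 and 56 after quantile normalization, and 79 and 41 after removal of the dependence on transcript GC content, with BIRC3 the member called each time. Groups that did not overlap were found for 3 members higher in Amuc_0904 (7.00% of all tested genes) and 1 lower (20.1% of all tested genes). The log2 fold change, Amuc_0904 minus buffer on the log2(TPM + 1) scale, had a median over the members of 0.094, against -0.062 over all tested genes, and 7 of the 10 were above 0, against 5414 of all 14421. With so few members, chosen with earlier results of these data known, these figures describe the genes and do not set them apart from the rest.

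BIRC3 was the member that rose. It encodes cIAP2, a ubiquitin ligase of the TNF receptor complex, and its gene is a textbook target of NF-kB. Its level was 14.99, 15.7 and 17.4 TPM in the Amuc_0904 libraries, against 9.77, 6.38 and 7.94 TPM in the buffer libraries. The groups did not overlap, and the lowest Amuc_0904 library lay well above the highest buffer library. BIRC3 averaged 16.0 ± 1.22 TPM in Amuc_0904 and 8.03 ± 1.697 TPM in buffer libraries (SD, n = 3 each), a ratio of 1.995. Its log2 fold change was 0.93 (SE 0.14; limma adjusted p = 0.026). In a bulk sample a higher level in each cell and more cells with the transcript cannot be told apart.

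The call of BIRC3 was close to the threshold of 0.05. It held without buffer replicate 1 (limma adjusted p = 0.032) and was lost when any other single library was left out. The adjusted p was then 0.077, 0.074 and 0.080 without Amuc_0904 replicates 1, 2 and 3, and 0.073 and 0.064 without buffer replicates 2 and 3. The log2 fold change stayed between 0.79 (without buffer replicate 2) and 1.06 (without buffer replicate 1). Testing without a filter on low values also ended the call (adjusted p = 0.14).

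BIRC3 and BIRC2 lie side by side on the plus strand of chromosome 11 (GRCh38, GENCODE 29). BIRC3 (ENSG00000023445) runs from 102317450 to 102339403 and BIRC2 (ENSG00000110330) from 102347211 to 102378670, with 7807 bases between them, and neither overlaps another annotated gene. The pair are close relatives in sequence, which can let reads be split between them. Across all their annotated transcripts, 11 of 7648 distinct 50-base windows of BIRC3 (0.144%) were also found in BIRC2. The count covers exact matches only, so it does not settle how reads were assigned between the genes, which was not tested. Their upstream sequences are shown because the genes are neighbours. BIRC3 rose, BIRC2 was higher without overlap but did not pass the test, and no test compared their changes. Each line gives the 250 bases before the RefSeq transcription start (GRCh38.p14, plus strand), with matches to the NF-kB site consensus in capitals: GGG, a purine, any pair of bases, 2 pyrimidines and CC, searched on both strands. BIRC3 spans chr11:102317234-102317483, and BIRC2 spans chr11:102346964-102347213.
BIRC3: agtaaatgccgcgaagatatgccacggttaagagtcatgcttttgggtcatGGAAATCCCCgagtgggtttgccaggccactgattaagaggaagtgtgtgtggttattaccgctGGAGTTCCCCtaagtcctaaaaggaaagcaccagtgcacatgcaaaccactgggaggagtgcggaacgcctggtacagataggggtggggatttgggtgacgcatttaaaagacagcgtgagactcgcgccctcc
BIRC2: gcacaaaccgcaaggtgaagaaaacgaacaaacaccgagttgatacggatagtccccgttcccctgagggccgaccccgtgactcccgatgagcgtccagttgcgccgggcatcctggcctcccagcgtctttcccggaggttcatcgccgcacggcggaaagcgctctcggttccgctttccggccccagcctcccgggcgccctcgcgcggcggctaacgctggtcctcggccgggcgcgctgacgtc
The BIRC3 stretch held 2 matches that do not overlap, both on the minus strand, starting 199 and 135 bases before the start. The BIRC2 stretch held none, nor did that of a second annotated BIRC2 start. Among the 10 genes TRAF3 was the other one with a match, GGGGATTTCC on the plus strand, 33 bases before its start. Over all 35116 upstream windows of this length in RefSeq, 9.96% held at least 1 match and 1.72% held at least 2. By gene, 2 of 10 members had a match in any window, against 11.8% of all genes. A match describes letters and is not evidence of binding. TRAF3 did not pass the test, and any link between matches and levels was not tested.

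**Figure D1:**
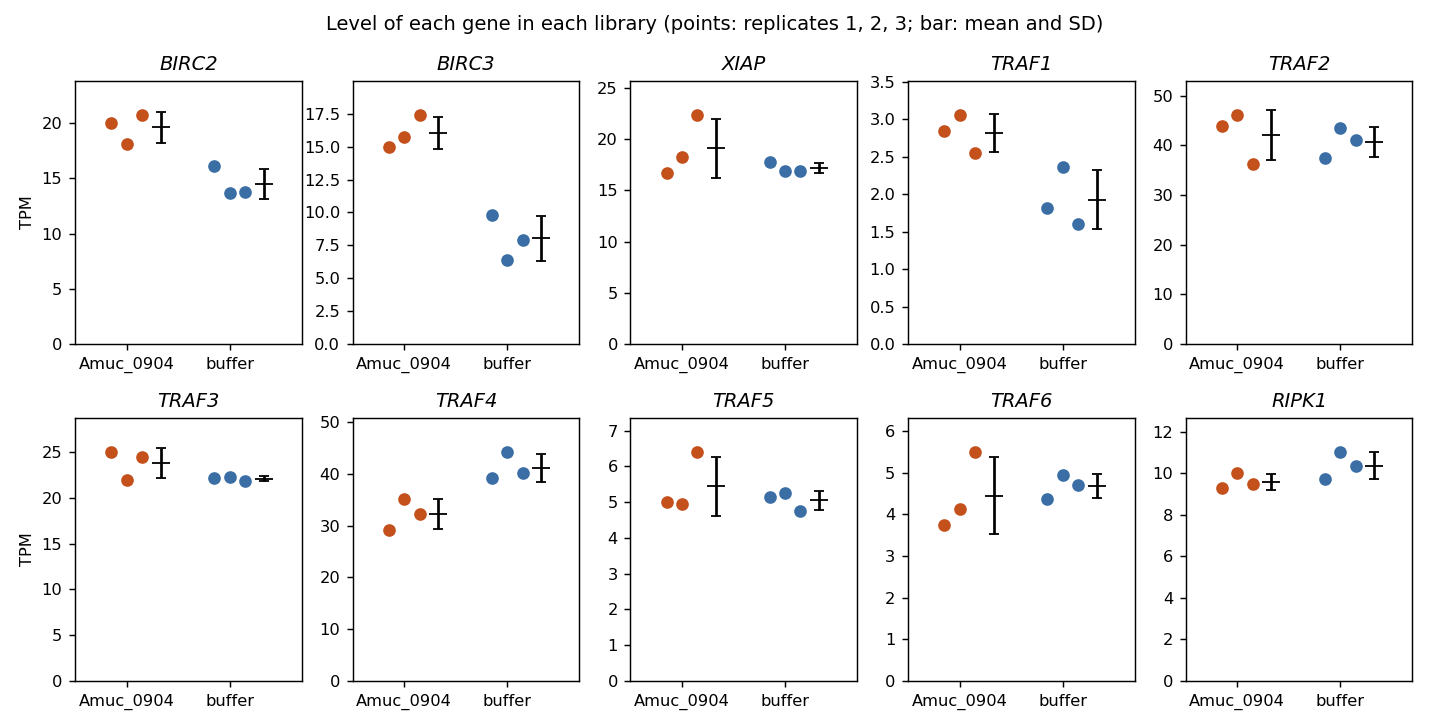
TPM of each of the 10 genes in each library (points, replicates 1 to 3 from left to right) with the group mean and SD beside them, Amuc_0904 in orange and buffer in blue, each axis starting at 0. BIRC3, BIRC2 and TRAF1 have all Amuc_0904 points above all buffer points, TRAF4 has all below, and the other 6 genes overlap.

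BIRC2, which encodes cIAP1, was higher in each Amuc_0904 library by a smaller margin and did not pass the test. Its level was 20.1, 18.1 and 20.7 TPM in Amuc_0904 libraries, against 16.1, 13.7 and 13.7 TPM in buffer libraries. The groups did not overlap. BIRC2 averaged 19.6 ± 1.37 TPM in Amuc_0904 and 14.5 ± 1.38 TPM in buffer libraries (SD, n = 3 each), a ratio of 1.35. On the log2 scale the change was 0.41, with a 95% interval from 0.19 to 0.63 before adjustment (limma adjusted p = 0.075). It passed when testing was restricted to genes with a mean of at least 5 TPM (adjusted p = 0.049), where 366 genes passed in all. BIRC2 passed in no other alternative run. Its limma adjusted p ran from 0.087 to 0.23 when single libraries were left out, and was 0.19 with no filter on low values.

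XIAP, the direct caspase inhibitor of the family, overlapped between the groups. It was listed at 16.7, 18.3 and 22.3 TPM in Amuc_0904 libraries, against 17.8, 16.9 and 16.8 TPM in buffer libraries. Amuc_0904 replicate 3 was high and replicate 1 lay below every buffer library. The log2 fold change was 0.13, with a 95% interval from -0.12 to 0.38 (limma adjusted p = 0.53). Leaving out Amuc_0904 replicate 3 gave 0.022 and leaving out replicate 1 of the same group gave 0.22, and the value was 0.21 after median centring or quantile normalization.

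Taken as a stack, the 3 IAP genes summed to 51.7, 52.0 and 60.4 TPM in Amuc_0904 libraries, against 43.6, 36.9 and 38.5 TPM in buffer libraries. The mix differed too. BIRC3 made up 28.99%, 30.2% and 28.8% of that sum in Amuc_0904 libraries, against 22.4%, 17.3% and 20.6% in buffer libraries, without overlap. XIAP made up 32.2%, 35.1% and 36.9% in Amuc_0904 libraries, against 40.7%, 45.8% and 43.7% in buffer libraries, again without overlap. The BIRC2 share overlapped, at 35.9% ± 2.47 in Amuc_0904 and 36.5% ± 0.720 in buffer libraries (SD, n = 3 each). The ratio of BIRC3 to BIRC2 TPM was 0.82 ± 0.063 in Amuc_0904 and 0.55 ± 0.074 in buffer libraries. These shares restate the levels above and were not tested.

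**Figure D2:**
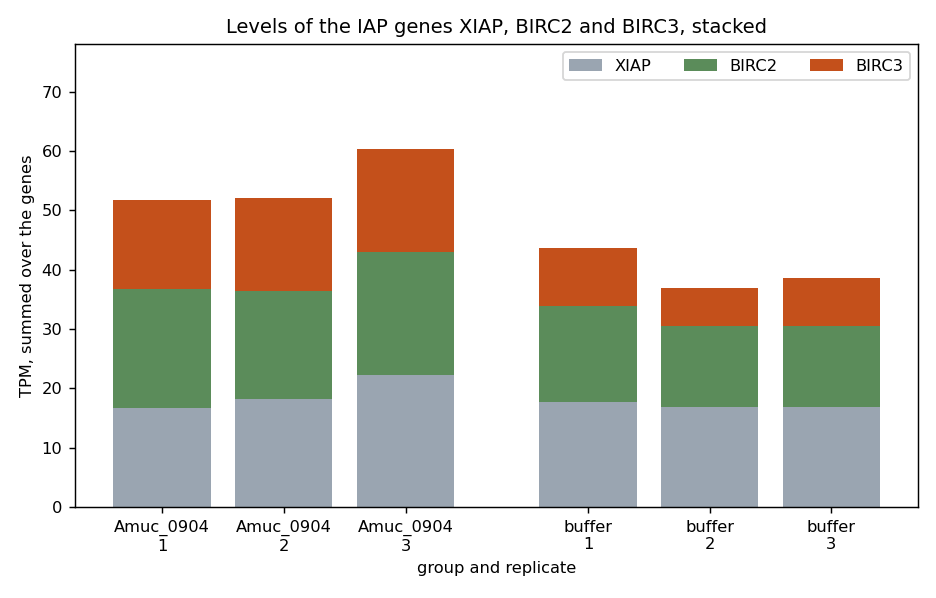
Stacked TPM (y axis, from 0) of XIAP, BIRC2 and BIRC3 in each library, with the 3 Amuc_0904 libraries on the left and the 3 buffer libraries on the right. The BIRC3 segment takes 28.8% to 30.2% of the stack in Amuc_0904 and 17.3% to 22.4% in buffer libraries.

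Among the TRAF genes, TRAF1 and TRAF4 had groups that did not overlap, in opposite directions, and neither passed the test. TRAF1 encodes an adaptor without the RING domain of the other members, partners with TRAF2, and is a known NF-kB target. It was the scarcest of the 10, at 2.84, 3.05 and 2.55 TPM in Amuc_0904 libraries, against 1.81, 2.36 and 1.60 TPM in buffer libraries. The lowest Amuc_0904 value was close to the highest buffer value. The log2 fold change was 0.39, with a 95% interval from 0.052 to 0.73 (limma adjusted p = 0.19), and the log2(TPM + 1) scale understates the change of a gene at so few TPM. The ratio of means was 1.46.

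TRAF4, an adaptor found at cell junctions and often abundant in carcinomas, was lower. It stood at 29.2, 35.04 and 32.3 TPM in Amuc_0904 libraries, against 39.1, 44.2 and 40.2 TPM in buffer libraries. TRAF4 averaged 32.2 ± 2.93 TPM in Amuc_0904 and 41.2 ± 2.67 TPM in buffer libraries (SD, n = 3 each), a ratio of 0.78. Its log2 fold change was -0.35, with a 95% interval from -0.55 to -0.15 (limma adjusted p = 0.083). TRAF4 (ENSG00000076604, chromosome 17 from 28743984 to 28750958, plus strand) overlaps 2 antisense genes. Of these AC010761.4 was listed at 0, 0.28 and 2.71 TPM in Amuc_0904 libraries, against 0.92, 3.65 and 3.59 TPM in buffer libraries, and AC010761.5 at 0 throughout. The strand protocol is not given in the sources used here, so reads of overlapping genes cannot be told apart.

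TRAF2, the adaptor that carries the cIAPs to the receptor, was listed at 43.9, 46.0 and 36.3 TPM in Amuc_0904 libraries, against 37.4, 43.5 and 41.1 TPM in buffer libraries. Both the highest and the lowest of these values came from Amuc_0904 libraries. Its log2 fold change was 0.044, with a 95% interval from -0.19 to 0.28 (limma adjusted p = 0.84). Relative to TRAF2, the level of BIRC3 was 0.34, 0.34 and 0.48 in Amuc_0904 libraries, against 0.26, 0.15 and 0.19 in buffer libraries, without overlap. TRAF4 stood at 0.66, 0.76 and 0.89 of the TRAF2 level in Amuc_0904 libraries, against 1.05, 1.02 and 0.98 in buffer libraries. These ratios use the same levels and were not tested.

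TRAF3, which joins TRAF2 and the cIAPs in the complex that marks NIK for breakdown, was listed at 25, 21.9 and 24.5 TPM in Amuc_0904 libraries, against 22.2, 22.3 and 21.8 TPM in buffer libraries. The buffer libraries were tight and Amuc_0904 replicate 2 lay among them. A log2 fold change of 0.10 was estimated (95% interval -0.076 to 0.28; limma adjusted p = 0.50). TRAF5, an adaptor used by several TNF receptors, was at 4.99, 4.95 and 6.40 TPM in Amuc_0904 libraries, against 5.14, 5.25 and 4.75 TPM in buffer libraries. Without Amuc_0904 replicate 3 its log2 fold change of 0.086 became -0.017. TRAF6, the ubiquitin ligase that serves interleukin-1 and Toll-like receptors, was at 3.74, 4.12 and 5.50 TPM in Amuc_0904 libraries, against 4.37, 4.96 and 4.72 TPM in buffer libraries. Amuc_0904 replicate 3 was again the highest library, as for XIAP and TRAF5. The 95% intervals of the log2 fold change ran from -0.20 to 0.37 for TRAF5 and from -0.40 to 0.25 for TRAF6 (limma adjusted p = 0.74 and 0.82), so changes of that size in either direction are within the error. The log2 fold change of TRAF6 was -0.072, and its sign turned after median centring (0.0088), after quantile normalization (0.019) and without Amuc_0904 replicate 1 (0.023).

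RIPK1, the kinase on which the cIAPs build ubiquitin chains, was listed at 9.27, 10.03 and 9.46 TPM in Amuc_0904 libraries, against 9.71, 11.02 and 10.4 TPM in buffer libraries. The groups overlapped through Amuc_0904 replicate 2. The change on the log2 scale was -0.10, with a 95% interval from -0.31 to 0.11 (limma adjusted p = 0.57). It was -0.060 without buffer replicate 2, -0.021 after median centring, -0.026 after quantile normalization and -0.037 after GC removal.

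**Figure D3:**
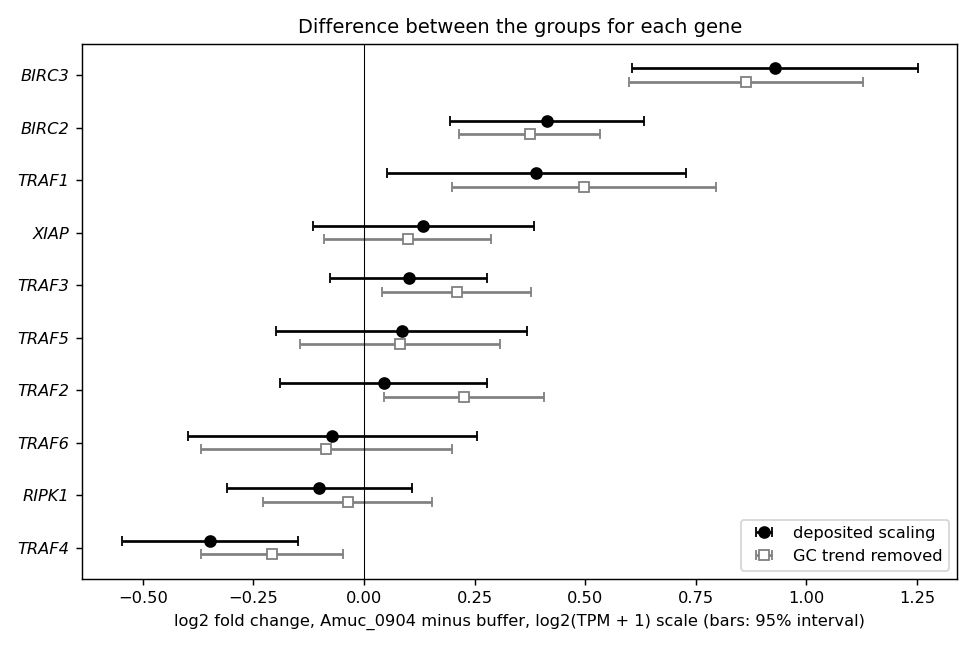
Log2 fold change (x axis, Amuc_0904 minus buffer on the log2(TPM + 1) scale) of each gene with its unadjusted 95% interval, with the deposited scaling (filled circles) and after the trend with transcript GC content was removed (open squares). BIRC3 lies at 0.93 and 0.86, and TRAF4 at -0.35 and -0.21.

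The members also differ in base composition, and the libraries differed by it. For each gene the log2 expression was taken as its deviation from the mean of that gene over all libraries. These deviations were fitted against the GC content of the longest GENCODE 29 transcript. Their slope per 10 percentage points was -0.042, 0.0021 and -0.11 in Amuc_0904 libraries, against 0.0045, 0.093 and 0.054 in buffer libraries. The slopes compare the libraries with one another and do not give the trend of expression with GC content within a library. Tested genes under 40% GC had a median log2 fold change of 0.048, and those of 60% GC or more had a median of -0.21. Of the members, BIRC3 has the lowest GC content (34.8%), followed by BIRC2 (38.0%) and XIAP (39.0%), while TRAF4 (56.8%) and TRAF2 (61.3%) have the highest. After this trend was removed from each library, BIRC3 had a log2 fold change of 0.86 (limma adjusted p = 0.025) and BIRC2 of 0.37 (adjusted p = 0.064). TRAF4 moved to -0.21 (adjusted p = 0.21), a change of over 1.5 times. TRAF1 moved to 0.50, TRAF2 to 0.23 and TRAF3 to 0.21, with adjusted p of 0.14, 0.22 and 0.22.

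**Figure D4:**
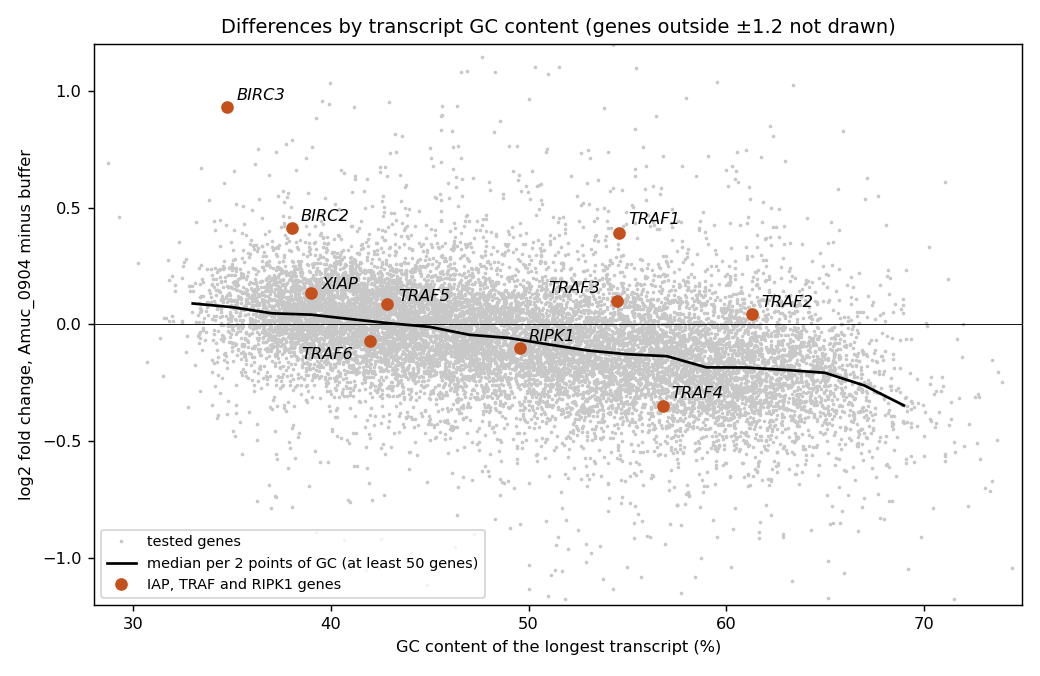
Log2 fold change (y axis, Amuc_0904 minus buffer) against GC content of the longest transcript (x axis, %) for tested genes (grey), their running median (line) and the 10 members (orange, named). The median falls with GC content. BIRC3, BIRC2, TRAF1, TRAF2 and TRAF3 lie above it, TRAF4 lies below it, and the other members lie closer to it.

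In both groups the members spanned a wide range of levels on the TPM scale. From high to low in Amuc_0904 libraries the order of mean levels was TRAF2, TRAF4, TRAF3, BIRC2, XIAP, BIRC3, RIPK1, TRAF5, TRAF6 and TRAF1. Neighbours in this order had separate ranges except BIRC2 and XIAP, XIAP and BIRC3, and TRAF5 and TRAF6. In buffer libraries the order was TRAF4, TRAF2, TRAF3, XIAP, BIRC2, RIPK1, BIRC3, TRAF5, TRAF6 and TRAF1, and the pairs that overlapped were TRAF4 and TRAF2, RIPK1 and BIRC3, and TRAF5 and TRAF6. BIRC3 was above RIPK1 in 3 of 3 Amuc_0904 libraries, while RIPK1 was above BIRC3 in 2 of 3 buffer libraries. The total of TRAF1 to TRAF6 was 111 ± 3.89 TPM in Amuc_0904 and 116 ± 6.39 TPM in buffer libraries (SD, n = 3 each), with overlap. TRAF4 made up 29.03% ± 2.10 of it in Amuc_0904 and 35.6% ± 0.424 in buffer libraries, without overlap.

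The remaining members are spread over the genome, with positions on GRCh38 from GENCODE 29. TRAF1 (ENSG00000056558) lies on chromosome 9 from 120902393 to 120929173 on the minus strand, and TRAF2 (ENSG00000127191) on chromosome 9 from 136881912 to 136926607. TRAF3 (ENSG00000131323) lies on chromosome 14 from 102777476 to 102911500, TRAF5 (ENSG00000082512) on chromosome 1 from 211326615 to 211374946, and TRAF6 (ENSG00000175104) on chromosome 11 from 36487027 to 36510272 on the minus strand. XIAP (ENSG00000101966) lies on chromosome X from 123859724 to 123913979 and RIPK1 (ENSG00000137275) on chromosome 6 from 3063991 to 3115187. TRAF2, TRAF3, XIAP and RIPK1 overlap other annotated genes, of which only AL031963.3, antisense to RIPK1, and AL121601.2, a pseudogene within XIAP, were listed above 0. The first was at 0.82, 0.88 and 0.60 TPM in Amuc_0904 libraries, against 1, 1.24 and 0.52 TPM in buffer libraries.

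Other genes of the same pathways were counted by list, and the lists too were chosen with earlier results of these data known. In the list of NF-kB subunits and inhibitors 2 of 10 tested genes rose (0.368% of all tested genes), 0 fell and 8 did not pass, with a median log2 fold change of 0.24 (unadjusted p under 0.05 for 4 higher and 1 lower, against 4.49% and 16.3% of all tested genes). NFKBIA, the inhibitor that NF-kB induces against itself, was at 47.5, 47.5 and 44.3 TPM in Amuc_0904 libraries, against 33.9, 32.7 and 29.9 TPM in buffer libraries (log2 fold change 0.52; limma adjusted p = 0.021). NFKB2, the precursor subunit of the alternative route, was at 26.9, 27.9 and 26.6 TPM in Amuc_0904 libraries, against 19.4, 19.1 and 21.7 TPM in buffer libraries (log2 fold change 0.42; limma adjusted p = 0.047). Groups were separate for both. With single libraries left out, NFKBIA held its call in 1 of 6 cases, without Amuc_0904 replicate 3 (limma adjusted p = 0.042). It lost it without Amuc_0904 replicate 1 (0.091) or 2 (0.074) and without buffer replicate 1 (0.051), 2 (0.083) or 3 (0.061). NFKB2 lost its call in all 6 cases, with adjusted p from 0.064 to 0.17, and also after median centring (0.059) and quantile normalization (0.055), while its log2 fold change stayed between 0.38 and 0.61 in every alternative run. Removal of the GC trend left both called. RELB, TNIP1 and TNFRSF18, chosen after their values were seen, then passed as well (log2 fold changes 0.58, 0.34 and 0.70, limma adjusted p = 0.014, 0.029 and 0.028). TNIP1 is from the ubiquitin list and TNFRSF18 from the TNF receptor list. Before GC removal they stood at 0.17 (adjusted p = 0.18) and 0.43 (0.083). With a block for the replicate number added to GC removal, RELB (0.087), TNIP1 (0.14), TNFRSF18 (0.075), NFKBIA (0.057) and NFKB2 (0.075) did not pass.

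Of 16 tested TNF receptor superfamily genes 0 passed by limma, with a median log2 fold change of -0.14 (unadjusted p under 0.05 for 3 higher and 6 lower, against 4.49% and 16.3% of all tested genes). TNFRSF12A, the receptor of TWEAK and the most abundant, averaged 229.8 ± 35.1 TPM in Amuc_0904 and 240.3 ± 21.6 TPM in buffer libraries (log2 fold change -0.072; limma adjusted p = 0.77), and after GC removal the value was 0.13. NGFR averaged 72.7 ± 5.23 TPM in Amuc_0904 and 98.1 ± 11.3 TPM in buffer libraries (log2 fold change -0.42; limma adjusted p = 0.066), and after GC removal its value was -0.23 (adjusted p = 0.15). Chosen after its values were seen, TNFRSF1A, the main TNF receptor, averaged 31.1 ± 0.933 TPM in Amuc_0904 and 37.6 ± 0.976 TPM in buffer libraries, without overlap (log2 fold change -0.27; limma adjusted p = 0.080). After GC removal the value of TNFRSF1A was -0.11 (adjusted p = 0.40).

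Of 13 tested genes of the kinase complexes below the TRAFs 0 passed by limma, with a median log2 fold change of 0.0067 (unadjusted p under 0.05 for 1 higher and 1 lower, against 4.49% and 16.3% of all tested genes). IKBKE, a kinase of the IKK family that works with TBK1 and TRAF3, was at 34.8, 36.0 and 31.3 TPM in Amuc_0904 libraries, against 22.0, 28.3 and 24.4 TPM in buffer libraries. The groups did not overlap (log2 fold change 0.44, limma adjusted p = 0.075), and after GC removal it passed, at 0.61 (adjusted p = 0.022). With a block for the replicate number added to GC removal IKBKE did not pass (adjusted p = 0.084). Without GC removal its adjusted p ran from 0.10 to 0.21 when single libraries were left out. IKBKG, the regulatory IKK subunit NEMO, averaged 26.6 ± 0.480 TPM in Amuc_0904 and 27.3 ± 2.47 TPM in buffer libraries (log2 fold change -0.034; limma adjusted p = 0.85).

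Of 15 tested genes for the linear ubiquitin ligase, its partner enzymes and deubiquitinases 0 passed by limma, with a median log2 fold change of -0.032 (unadjusted p under 0.05 for 3 higher and 2 lower, against 4.49% and 16.3% of all tested genes). UBE2V1 and UBE2N, which together build lysine-linked chains with TRAF6, did not pass. UBE2V1 averaged 129.6 ± 5.12 TPM in Amuc_0904 and 137 ± 2.73 TPM in buffer libraries (limma adjusted p = 0.48), and UBE2N averaged 119.8 ± 6.55 TPM in Amuc_0904 and 110.1 ± 5.49 TPM in buffer libraries (limma adjusted p = 0.35). Chosen after its values were seen, RNF31, the catalytic subunit HOIP of the linear ubiquitin ligase, was at 9.67, 11.2 and 11.8 TPM in Amuc_0904 libraries, against 15.1, 20.7 and 17.0 TPM in buffer libraries. The groups were separate (log2 fold change -0.64; limma adjusted p = 0.052), and after GC removal the value was -0.46 (adjusted p = 0.11). TNFAIP3 (A20), likewise chosen after its values were seen, removes ubiquitin chains from the same complex and averaged 5.02 ± 1.27 TPM in Amuc_0904 and 2.88 ± 0.450 TPM in buffer libraries (log2 fold change 0.62; limma adjusted p = 0.11).

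Of 8 tested death domain partner genes 0 passed by limma, with a median log2 fold change of 0.11 (unadjusted p under 0.05 for 1 higher and 1 lower, against 4.49% and 16.3% of all tested genes). FADD, the adaptor of caspase-8, averaged 51.3 ± 6.24 TPM in Amuc_0904 and 51.1 ± 2.08 TPM in buffer libraries (limma adjusted p = 0.997). CASP8, the caspase itself, averaged 17.6 ± 1.39 TPM in Amuc_0904 and 16.1 ± 0.785 TPM in buffer libraries (limma adjusted p = 0.48). In the list of IAP antagonists 0 of 3 tested genes passed by limma, and 0 had an unadjusted p under 0.05 (median log2 fold change 0.031). DIABLO (SMAC), which displaces caspases from XIAP, averaged 48.5 ± 4.39 TPM in Amuc_0904 and 45.5 ± 2.004 TPM in buffer libraries (limma adjusted p = 0.58). HTRA2, a protease that also binds XIAP, averaged 45.5 ± 3.40 TPM in Amuc_0904 and 44.5 ± 1.88 TPM in buffer libraries (limma adjusted p = 0.85). Of 3 other IAP family genes tested 0 passed by limma, with a median log2 fold change of -0.0077 (unadjusted p under 0.05 for 0 higher and 1 lower, against 4.49% and 16.3% of all tested genes). BIRC5 (survivin), which acts in mitosis, averaged 92.9 ± 4.83 TPM in Amuc_0904 and 110.5 ± 2.996 TPM in buffer libraries, without overlap (log2 fold change -0.25; limma adjusted p = 0.083), and after GC removal its value was -0.15 (adjusted p = 0.26). BIRC6 averaged 19.9 ± 2.96 TPM in Amuc_0904 and 20.0 ± 1.68 TPM in buffer libraries (limma adjusted p = 0.98).

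Of 15 tested genes that use TRAF6 or TRAF3 outside the TNF receptors 0 passed by limma, with a median log2 fold change of -0.066 (unadjusted p under 0.05 for 1 higher and 1 lower, against 4.49% and 16.3% of all tested genes). IRAK1, the kinase that hands the signal to TRAF6, averaged 174 ± 11.9 TPM in Amuc_0904 and 206 ± 30.2 TPM in buffer libraries (log2 fold change -0.23; limma adjusted p = 0.26), and after GC removal its value was -0.038. SIGIRR, an inhibitory receptor of that route, averaged 42.6 ± 4.23 TPM in Amuc_0904 and 47.4 ± 1.90 TPM in buffer libraries (limma adjusted p = 0.34). Of 7 other TRAF-named or TRAF-domain genes tested 0 passed by limma, with a median log2 fold change of -0.012 (unadjusted p under 0.05 for 0 higher and 2 lower, against 4.49% and 16.3% of all tested genes). TRAF7 averaged 41.5 ± 1.88 TPM in Amuc_0904 and 52.2 ± 2.99 TPM in buffer libraries, without overlap (log2 fold change -0.32; limma adjusted p = 0.065), and after GC removal its value was -0.14 (adjusted p = 0.21). USP7, a deubiquitinase with a TRAF-like domain, averaged 35.9 ± 2.49 TPM in Amuc_0904 and 35.1 ± 2.08 TPM in buffer libraries (limma adjusted p = 0.85).

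**Figure D5:**
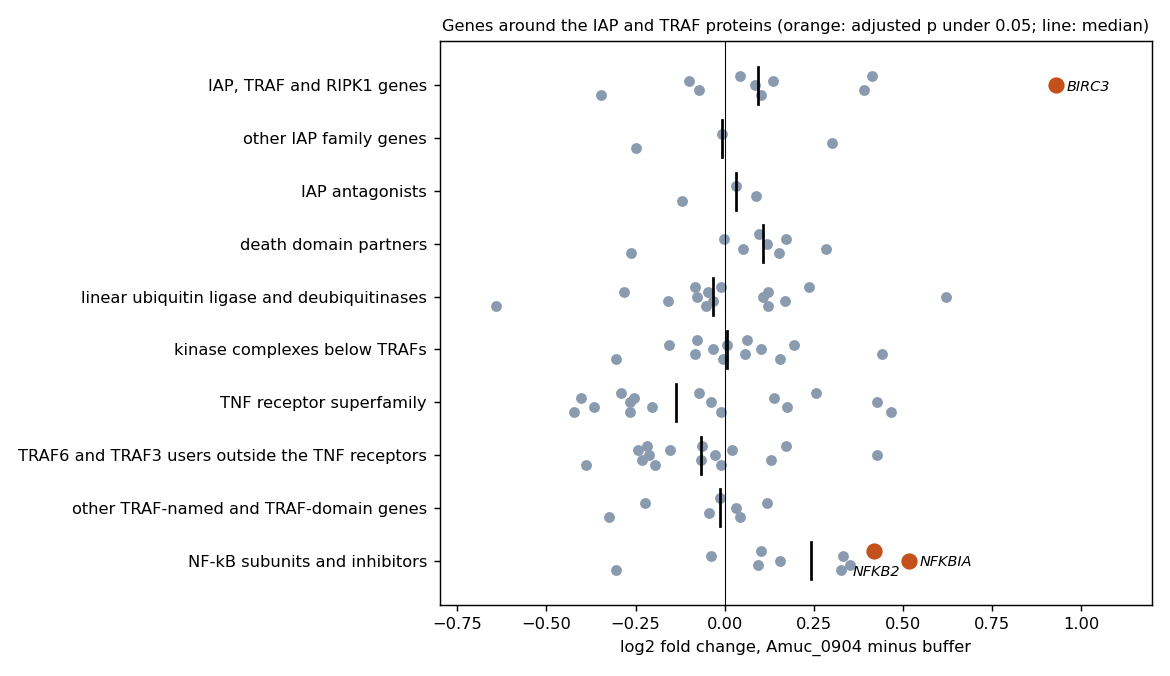
Log2 fold change (x axis, Amuc_0904 minus buffer) of every tested gene in the lists around the IAP and TRAF proteins, 1 row per list, with list medians as lines and genes past an adjusted p of 0.05 in orange. BIRC3 (0.93), NFKBIA (0.52) and NFKB2 (0.42) are the genes past the threshold.

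Among 9857 named genes with a mean of at least 5 TPM, the 5 whose log2(TPM + 1) over the 6 libraries was most like that of BIRC3 were OPTN, RARS1, CNBP, EXOSC9 and ESM1, with Pearson r between 0.993 and 0.997. For BIRC2 they were UTP11, HSPA8, EIF3M, SBDSP1 and SMS, with r between 0.991 and 0.995. These values include the difference between the groups, rest on 6 libraries and are descriptions without a test. The changes of the BIRC3 set were smaller than that of BIRC3, with log2 fold changes from 0.093 (CNBP) to 0.31 (ESM1), and none passed (limma adjusted p from 0.077 to 0.32). In the BIRC2 set they ran from 0.13 (HSPA8) to 0.33 (UTP11), and none passed (limma adjusted p from 0.075 to 0.23).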

How the data were processed

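Total RNA of SW480 cells, extracted with TRIzol per the labels' protocols, was sequenced in 6 libraries, 3 per treatment, with groups taken from the labels. The authors deposited TPM values per gene, quantified with RSEM per the series' design text. HISAT2, StringTie and edgeR also appear in the submitters' processing notes, without roles, beside a mouse build (GRCm38.p6), although the gene identifiers are human, so the annotation used is uncertain. Strand protocol and depth are not given in the sources used here.

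Genes with at least 1 TPM in at least 3 libraries were fitted on log2(TPM + 1) by limma (version 3.58.1, R 4.3.3; two-sided, with a trended prior), with Benjamini-Hochberg adjustment over all 14421 tested genes and a threshold of 0.05. The fit was tested on simulated data. Transcript GC content was taken from GENCODE 29 for 14277 tested genes, and its trend was removed per library by loess (span 0.3). Upstream sequences came from RefSeq (GRCh38.p14), where all 10 symbols matched. Also tried were median centring, quantile normalization, a block for the replicate number, a pseudocount of 0.1, a mean of at least 5 TPM or no filter, an adjusted p of 0.01, and leaving out libraries singly. Named genes were the 10 members and, per list, up to 4 genes past the threshold or else the 2 tested genes with the highest mean, plus the 5 genes most correlated with each of the 2 members of lowest p. Members and lists were chosen with earlier results of these data known.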

Additional observations from a re-analysis of the deposited data

How the results depend on the processing

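The log2 fold changes of BIRC2, BIRC3, XIAP, TRAF1, TRAF3, TRAF4 and RIPK1 kept their sign under each alternative run. BIRC3 lost its call with no filter on low TPM (0.93, limma adjusted p = 0.14, with 30992 genes tested), with the replicate number as a block (0.93, adjusted p = 0.060) and with GC removal and the block together, an alternative chosen after seeing the data (0.86, adjusted p = 0.092). Its values without each library in turn ran from 0.79 to 1.06. BIRC2 gained a call with a mean of at least 5 TPM (0.41), a filter that left TRAF1 and TRAF6 untested. Without each library in turn TRAF2 ran from -0.022 to 0.14, TRAF5 from -0.017 to 0.14 and TRAF6 from -0.20 to 0.023, and TRAF6 was at 0.0088 after centring and 0.019 after quantile normalization. Around the members, signs turned for BIRC6 (centred 0.073, quantile 0.071, without single libraries -0.081 to 0.11), FADD (0.080, 0.064, -0.073 to 0.098, and 0.17 with GC removal, with or without the block) and IKBKG (0.046, 0.045, -0.076 to 0.037, and 0.16). TNFRSF12A turned with centring (0.0080) and GC removal (0.13, also with the block) and ran from -0.15 to 0.060 without single libraries. UBE2V1 turned with centring (0.0029) and SIGIRR with GC removal (0.12, also with the block). HTRA2 ran from -0.029 to 0.065 and USP7 from -0.018 to 0.079 without single libraries. The block also ended the calls of NFKB2, CDH1 and TMEM123, no filter ended those and that of NFKBIA, and the mean filter added calls of NGFR, TRAF7, RNF31 and RELA. The cause of these shifts was not tested. Members past the threshold numbered 0 with no filter, 0 with the block, 0 with GC removal and the block, 2 with the mean filter, and 0 to 1 without each library. All genes past it numbered 9 with no filter, 366 with the mean filter, 85 after centring (43 higher, 42 lower), 102 after quantile normalization (46 higher, 56 lower), 120 after GC removal (79 higher, 41 lower), 80 with the block, 17 with GC removal and the block, 29 at an adjusted p of 0.01, and 35 to 112 without each library. Same-numbered libraries showed no shared deviation (Pearson r across genes -0.03, 0.08 and -0.09), so the numbers were not taken as pairs. With depth unknown, the 3 libraries per group set the precision.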

Other observations

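The genes next to BIRC3 and BIRC2 on chromosome 11 were compared after the values were seen. Of the 4 tested genes within 250000 bases of BIRC3, which include BIRC2, TMEM123 rose, as did 0.368% of all tested genes. TMEM123 lies beyond BIRC2 from 102396332 to 102470384 on the minus strand. It averaged 318 ± 11.6 TPM in Amuc_0904 and 237 ± 11.4 TPM in buffer libraries (log2 fold change 0.42; limma adjusted p = 0.021). The call held in 2 of 6 cases with single libraries left out and was lost without Amuc_0904 replicate 1 (0.084) or 2 (0.063) and without buffer replicate 2 (0.090) or 3 (0.064). YAP1, on the other side from 102110461 to 102233423, averaged 57.5 ± 3.21 TPM in Amuc_0904 and 64.8 ± 5.45 TPM in buffer libraries (log2 fold change -0.17; limma adjusted p = 0.27). FLOT2 is the gene of lowest p among the 22 tested within 250000 bases of TRAF4, and it did not pass. FLOT2, which encodes a membrane scaffold protein, averaged 47.6 ± 2.84 TPM in Amuc_0904 and 59.8 ± 3.56 TPM in buffer libraries (log2 fold change -0.32; limma adjusted p = 0.073), and after GC removal its value was -0.16 (adjusted p = 0.23).

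Other genes of the NF-kB routes, also chosen after their values were seen, differed in direction. RELB averaged 18.4 ± 0.881 TPM in Amuc_0904 and 14.2 ± 1.12 TPM in buffer libraries (log2 fold change 0.35, limma adjusted p = 0.083; 0.58 and 0.014 after GC removal). RELA averaged 48.9 ± 1.44 TPM in Amuc_0904 and 60.7 ± 3.33 TPM in buffer libraries (log2 fold change -0.31, limma adjusted p = 0.063; -0.16 and 0.21 after GC removal). Neither pair of groups overlapped. Every Amuc_0904 library lay above every buffer library, as for RELB, in 7.00% of all tested genes. Every one lay below, as for RELA, in 20.1%.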
